A study of Homo sapiens with 14 samples.

Results

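The 38 HOX genes described here are 10 of the HOXA cluster on chromosome 7, 10 of HOXB on chromosome 17, 9 of HOXC on chromosome 12 and 9 of HOXD on chromosome 2, out of 20037 protein-coding entries of the RefSeq annotation (GRCh38.p14). They were taken by name and by cluster, and no measured value entered that choice. HS-SY-II, an established synovial sarcoma cell line whose genotype is labelled WT, was crosslinked with 1% formaldehyde and sonicated, and chromatin was recovered with an antibody to GLTSCR1 or to the HA tag. GLTSCR1 is the subunit that marks GBAF, 1 of the forms taken by BAF chromatin remodellers, and the HA antibody recognises a tagged SS18::SSX fusion, the oncoprotein of this tumour. The GLTSCR1 groups were DMSO (vehicle) and 12, 24, 48 and 96 h in 100 nM WA-68, a degrader of the GBAF subunit BRD9. The fusion groups were DMSO and 12, 24 and 48 h in the same dose. Each of these 9 groups held 1 library, so differences between groups have no replicate check and are given without tests or p-values. When the DMSO cells were harvested is not labelled, so time in culture and time in WA-68 cannot be told apart, and all libraries come from 1 cell line, whose identity the lists, which hold no expression values, cannot be used to check. The 5 input libraries were not analysed here.

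HOX genes encode homeodomain transcription factors that set position along the body axis. In vertebrates they lie in 4 clusters that arose by duplication of an ancestral one, and genes of the same number in different clusters (paralogs, such as HOXA9 and HOXC9) are closer to each other in sequence than to their neighbours. Within a cluster the order of the genes follows the order in which they act from head to tail: low numbers act anteriorly and high numbers posteriorly. In many differentiated cells silent HOX clusters are held by Polycomb complexes, and BAF complexes are known as their opponents. Here paralog groups 1 to 3 are called anterior, 4 to 8 central and 9 to 13 posterior.

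A gene was counted as called in a list when a peak overlapped its annotated span with 1 kb either side by at least 1 bp. A value given as a fold is the authors' enrichment of the strongest summit of that peak over its local background, which ranks peaks within 1 list and is set side by side, not compared, across lists. The fold of a gene is that of the strongest region overlapping its span with 1 kb either side. That region can be shared with neighbours, have its summit outside this window, or differ in place from list to list. A gene with no peak had no signal past the caller's threshold, and may still bind the protein below it. The lists held 13677 to 18037 regions for GLTSCR1 and 24846 to 28619 for the fusion. The GLTSCR1 list was longest in DMSO, where it covered 16.8 Mb, against 8.55 to 11.1 Mb after WA-68, while the fusion lists covered 30.3 to 36.4 Mb. Sequencing depth is not known from the lists.

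The 4 stretches of 250 bases before an annotated gene start are shown because they span the range of cover found: the start shared by HOXC4 and HOXC5 lay wholly under a peak in all 9 lists, that of HOXA10 in all 4 fusion lists and in 4 of the 5 GLTSCR1 lists at least in part, that of HOXA13 in all 4 fusion lists and in no GLTSCR1 list, and that of HOXD4 in none. They are written 5′ to 3′ on the gene's strand, from RefSeq (GRCh38.p14), with each CpG in capitals.
HOXC4 and HOXC5 (chr12:54016638-54016887, plus strand): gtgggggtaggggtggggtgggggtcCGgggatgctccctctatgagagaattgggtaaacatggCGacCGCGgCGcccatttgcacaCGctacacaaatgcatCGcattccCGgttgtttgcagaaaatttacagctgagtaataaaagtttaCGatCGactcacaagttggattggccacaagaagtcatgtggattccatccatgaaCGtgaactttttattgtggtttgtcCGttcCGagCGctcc
HOXA10 (chr7:27179862-27180111, minus strand): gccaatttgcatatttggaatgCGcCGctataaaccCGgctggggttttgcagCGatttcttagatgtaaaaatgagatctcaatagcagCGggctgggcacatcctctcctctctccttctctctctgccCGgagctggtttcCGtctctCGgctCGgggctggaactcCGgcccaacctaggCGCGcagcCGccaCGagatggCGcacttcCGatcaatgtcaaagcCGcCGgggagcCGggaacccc
HOXA13 (chr7:27200092-27200341, minus strand): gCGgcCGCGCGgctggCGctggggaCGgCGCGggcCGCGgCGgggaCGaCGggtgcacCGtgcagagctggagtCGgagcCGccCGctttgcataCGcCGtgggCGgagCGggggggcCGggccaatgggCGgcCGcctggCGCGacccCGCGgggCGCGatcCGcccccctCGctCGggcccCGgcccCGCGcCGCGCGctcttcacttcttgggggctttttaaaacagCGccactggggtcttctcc
HOXD4 (chr2:176151300-176151549, plus strand): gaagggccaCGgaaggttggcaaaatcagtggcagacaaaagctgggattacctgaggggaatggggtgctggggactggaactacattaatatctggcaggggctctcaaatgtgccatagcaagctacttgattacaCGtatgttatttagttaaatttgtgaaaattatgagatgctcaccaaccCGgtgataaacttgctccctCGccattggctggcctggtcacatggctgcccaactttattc

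The HOXC4 and HOXC5 stretch holds 14 CpG, that of HOXA10 19, that of HOXA13 40 and that of HOXD4 4, against a median of 11 over all 35116 stretches of the same kind. RefSeq start sequences were matched for 20 of the 38 HOX genes, with 27 start entries in all and a median of 19 CpG. These are all HOXA genes but HOXA5, all HOXD genes but HOXD9, and HOXB1, HOXC4 and HOXC5. The start counts therefore do not describe HOXB2 to HOXB13 or most of HOXC. HOXC4 and HOXC5 share 1 stretch, which is counted for each. GGGCGG, the GC box, was searched on both strands and occurs in 13 of the 27 HOX stretches and in 42.6% of all stretches. TATAAA, the TATA box, was searched on both strands too. It occurs in 5 of the 27, the printed HOXA10 stretch among them, and in 10.7% of all. In some of the 5 it lies only on the strand opposite the gene. Among these 20 genes, the fusion covered at least 1 start of 17, 18, 16 and 17 genes in DMSO and at 12, 24 and 48 h, where 12.7%, 10.8%, 10.1% and 12.6% of all genes with such an entry were covered. GLTSCR1 covered a start of 9, 3, 3, 5 and 3 of them in DMSO and at 12, 24, 48 and 96 h, against 23.7%, 18.1%, 8.83%, 6.76% and 9.44% of all. Of the 20 genes, 10, 9, 10, 11 and 11 had a GLTSCR1 peak anywhere in the gene or within 1 kb of it in these lists, and 1, 6, 7, 6 and 8 had it off the starts alone. The counts below include such peaks within or beside the gene bodies.

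The fusion was called at nearly every HOX gene and GLTSCR1 at about 7 in 10. The fusion lists called 36, 35, 34 and 35 of the 38 in DMSO and at 12, 24 and 48 h, while 24.2%, 23.9%, 21.6% and 23.5% of all protein-coding genes were called. GLTSCR1 was called at 26, 25, 25, 26 and 27 of them in DMSO and at 12, 24, 48 and 96 h, where the share of all genes was 37.3%, 33.4%, 23.7%, 18.2% and 23.4%. Of the 38 HOX genes, 34 had a fusion peak and 21 a GLTSCR1 peak at every time, beside 13.3% and 11.6% of all genes. Put as a share of the genes called in DMSO, these are 34 of 36 and 21 of 26, beside 55% and 31.1% over all genes. All 9 lists called 20 HOX genes, and 6.48% of all genes. HOX genes are short, at most 45.6 kb, and among the 13294 protein-coding genes no longer than that the DMSO lists called 32.1% for GLTSCR1 and 20.9% for the fusion.

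Neighbouring HOX genes share peaks, so these counts are not counts of separate sites. In the GLTSCR1 DMSO list the strongest peaks of the 26 called genes came from 20 distinct regions, and in the fusion DMSO list those of the 36 came from 30. The strongest peak of each called HOX gene was high within its list. Its median stood at the 94.0th percentile of fold in GLTSCR1 DMSO and at the 90.2th in fusion DMSO. For called genes of any kind the median stood at the 66.2th and 57.0th. At the later times the median HOX gene stood at the 78.5th to 87.2th percentile for GLTSCR1 and at the 87.8th to 93.3th for the fusion. The regions of the clusters, each counted once, stood nearer the middle of their lists. Their median percentile was 70.2, 47.8, 59.0, 58.5 and 54.9 for GLTSCR1 in DMSO and at 12, 24, 48 and 96 h. For the fusion it was 64.3, 58.4, 61.5 and 59.4 in DMSO and at 12, 24 and 48 h.

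The clusters differed in which protein covered them. HOXB and HOXC genes carried both: GLTSCR1 was called at 9 of 10 HOXB genes in each list and at 9, 8, 8, 8 and 9 of the 9 HOXC genes, and the fusion at 9, 8, 8 and 8 HOXB genes and at all 9 HOXC genes. HOXA genes carried the fusion, called at all 10 in each list, with GLTSCR1 at 3, 5, 4, 5 and 4. HOXD genes had the fusion at 8, 8, 7 and 8 of 9 and GLTSCR1 at 5, 3, 4, 4 and 5. Over all genes the shares were 37.3%, 33.4%, 23.7%, 18.2% and 23.4% for GLTSCR1 and 24.2%, 23.9%, 21.6% and 23.5% for the fusion. The GLTSCR1 counts of HOXA in DMSO and of HOXD at 12 h were near these shares. In DMSO 25 HOX genes had both proteins, as did 17.8% of all genes, and 11 had the fusion without a GLTSCR1 peak: 7 in HOXA, 3 in HOXD and HOXB1.

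By position on the axis, the GLTSCR1 DMSO list called 3 of 7 anterior, 10 of 15 central and 13 of 16 posterior genes, and the fusion DMSO list 7, 14 and 15. These lists called 37.3% and 24.2% of all genes, so the anterior GLTSCR1 count was near that share. GLTSCR1 was called at every time at 3 anterior, 9 central and 9 posterior genes, beside 11.6% of all genes. The clusters differed within 1 class, as all 5 central HOXB and all 4 central HOXC genes had GLTSCR1 at every time and none of the 4 central HOXA genes did. In paralog group 1 (HOXB1 and HOXD1) no GLTSCR1 list called a gene, and in groups 8 and 11 the GLTSCR1 DMSO list called all 3 genes.

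**Figure D1:**
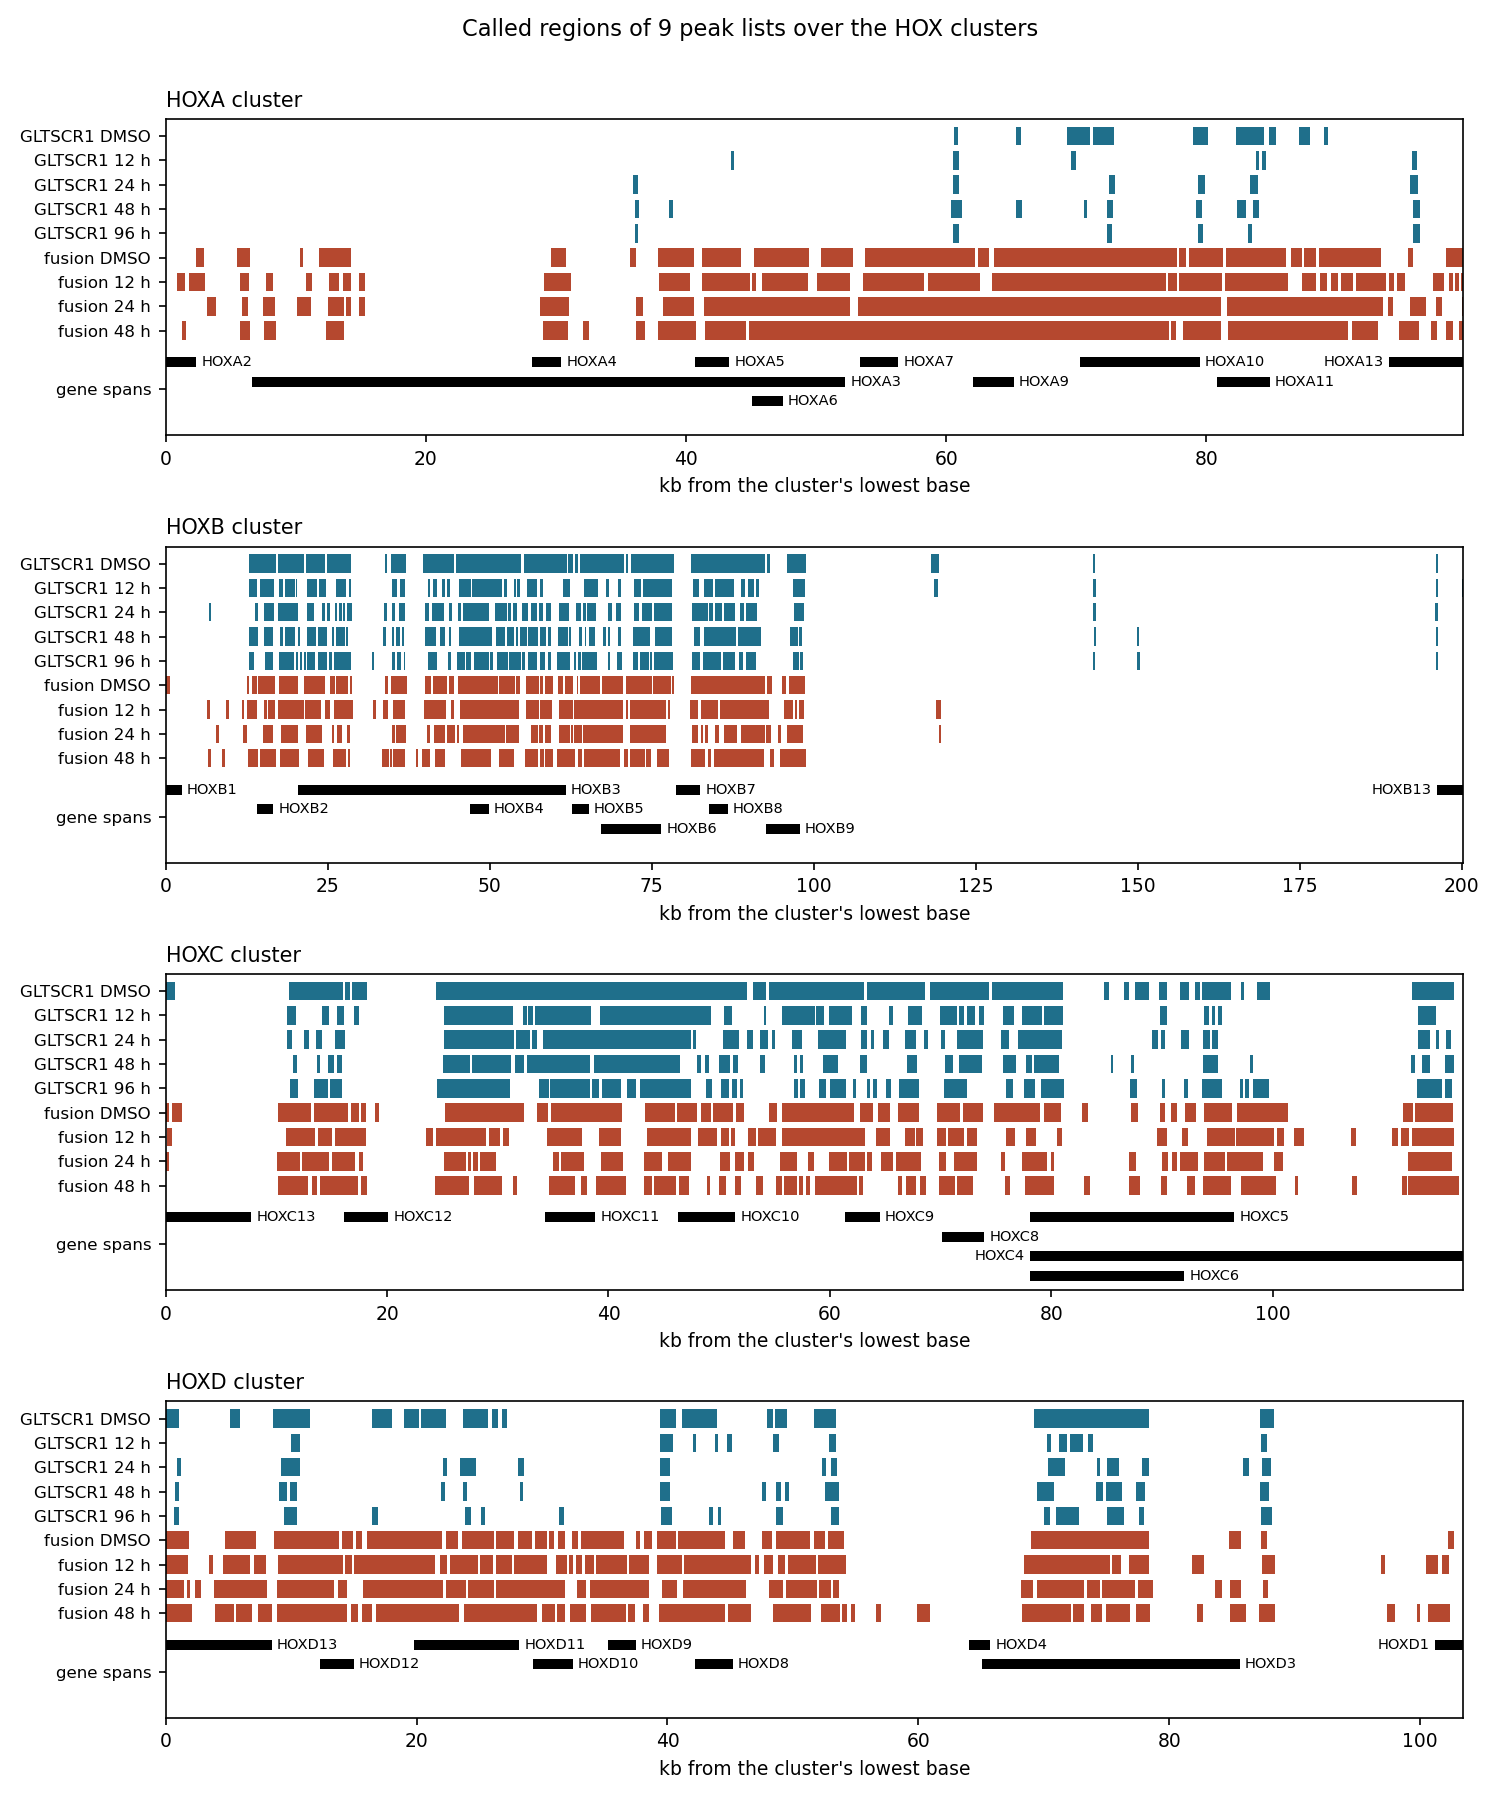
Called regions of the 5 GLTSCR1 lists (blue) and 4 fusion lists (red) along each HOX cluster, in kb from the cluster's lowest base, with the annotated spans of the 38 genes in black. GLTSCR1 regions are few over HOXA, where the fusion covers most of the right side, and both proteins cover the left side of HOXB and the middle of HOXC.

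From the first to the last gene, the 4 clusters span 520.6 kb: HOXA 99.7 kb (chr7:27100354-27200091), HOXB 200.2 kb (chr17:48528526-48728750), HOXC 117.2 kb (chr12:53938831-54056030) and HOXD 103.4 kb (chr2:176087487-176190907). The fusion covered 46.3%, 45.9%, 42.6% and 45.1% of that length in DMSO and at 12, 24 and 48 h. Over chromosomes 1 to 22, X and Y, each taken up to its last annotated gene, the same lists covered 0.982% to 1.18%. GLTSCR1 covered 35.4%, 18.7%, 20.0%, 19.5% and 20.0% of the clusters in DMSO and at 12, 24, 48 and 96 h, and 0.277% to 0.543% of the chromosomes. Both proteins therefore covered a far larger share of the clusters than of the chromosomes at large, and the GLTSCR1 cover was longest in DMSO.

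As a share of the whole length, GLTSCR1 covered HOXC most. In HOXC its peaks took 63.5% of the length in DMSO and 38.0%, 38.5%, 32.8% and 37.5% at 12, 24, 48 and 96 h. Of 30856 windows of 100 kb, 3 (0.00972%) were covered at least as much in DMSO. HOXB followed with 35.4%, 21.9%, 23.0%, 24.3% and 23.8%. HOXD had 29.0% in DMSO and 6.38%, 9.53%, 9.56% and 10.1% later, and HOXA 8.96% and then 2.11%, 3.01%, 4.64% and 2.34%. By share of length, the order HOXC, HOXB, HOXD, HOXA held in all 5 lists, also with the stricter q threshold, lists of equal length or covered length, and merged regions. The length of HOXB includes a long gap between HOXB9 and HOXB13, which these alternatives keep. In kb, GLTSCR1 cover at 24, 48 and 96 h was longer in HOXB (46.1, 48.6 and 47.6) than in HOXC (45.1, 38.5 and 43.9). In DMSO and at 12 h it was shorter. Inside the annotated gene spans HOXB was above HOXC in all 5 lists, with 69.6% against 50.5% in DMSO.

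The fusion gave another order. It covered 57.8%, 58.8%, 63.8% and 62.1% of HOXA, and 51.0%, 55.7%, 53.4% and 58.3% of HOXD, in DMSO and at 12, 24 and 48 h. HOXC had 57.3%, 49.9%, 42.5% and 45.1%, and HOXB 31.7%, 32.1%, 26.5% and 29.7%. As a share of the whole length, HOXA was highest and HOXB lowest in all 4 lists, but in DMSO HOXA and HOXC lay close together, and with regions within 500 bp merged HOXC was higher (61.4% against 59.8%). The low value of HOXB includes the long gap between HOXB9 and HOXB13, which are known to lie far apart, and 45.6 kb of that gap held no peak of any list. Inside the annotated gene spans alone HOXB was not lowest in any list. There the fusion covered 63.1%, 61.7%, 52.7% and 56.9% in HOXB and 48.7%, 52.5%, 56.3% and 54.7% in HOXA.

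**Figure D2:**
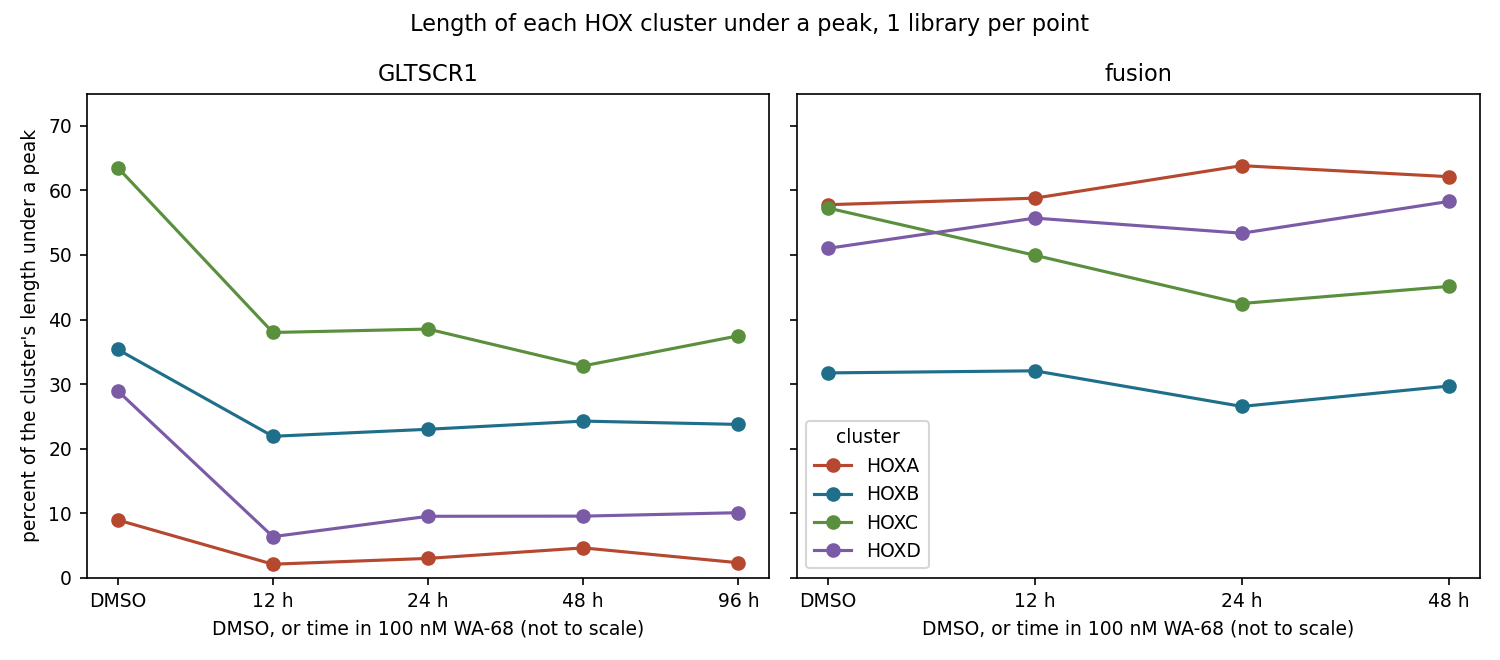
Percent of each HOX cluster's length under a peak, in DMSO and after 12 to 96 h in WA-68, for GLTSCR1 (left) and the fusion (right), with 1 library per point and no error bar. GLTSCR1 cover is highest in DMSO in all 4 clusters, from 63.5% in HOXC to 8.96% in HOXA (in HOXA not so against 48 h with lists of equal covered length), while fusion cover of HOXD lies above its DMSO value at each later time.

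Set against DMSO, the length of GLTSCR1 cover at 12, 24, 48 and 96 h was 0.620, 0.650, 0.686 and 0.672 times as long in HOXB and 0.598, 0.606, 0.517 and 0.590 times in HOXC. The whole list gave 0.662, 0.625, 0.510 and 0.612 times, so HOXB and HOXC stood near the list as a whole. HOXD was at 0.220, 0.329, 0.330 and 0.348 times and HOXA at 0.235, 0.336, 0.518 and 0.261 times. The lists differ in length, and with each antibody's lists brought to the covered length of its shortest, by strongest peaks first, the HOXA ratios were 0.653, 0.889, 2.14 and 0.879 and those of HOXD 0.230, 0.418, 0.609 and 0.484. The HOXA ratio therefore turned at 48 h with that choice, which was made after the data were seen, while HOXD was below HOXB at every later time under both. Fusion cover of HOXC was 0.872, 0.742 and 0.788 times its DMSO length, of HOXB 1.01, 0.836 and 0.936, of HOXA 1.02, 1.10 and 1.08 and of HOXD 1.09, 1.05 and 1.14, where the whole list gave 1.07, 0.893 and 0.983. The HOXA ratio at 12 h fell below 1 in 3 of the alternatives, at 0.965 with -log10 q of at least 5, 0.981 with lists of equal length and 0.931 with equal covered length, and so did that of HOXB in the last of these (0.976) and with equal length (0.993). Those of HOXD were above 1 in each.

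Base by base, 61.1% to 66.2% of the GLTSCR1 DMSO cover of HOXB and 50.2% to 59.0% of that of HOXC was under a GLTSCR1 peak again at a given later time. In HOXD it was 19.6% to 32.2% and in HOXA 12.8% to 31.8%, and over all chromosomes 36.3% to 47.1%. For the fusion the share was 87.5% to 91.7% in HOXA, 87.1% to 87.5% in HOXD, 74.9% to 85.9% in HOXB and 65.8% to 72.1% in HOXC, with 67.0% to 75.1% over all chromosomes. The clusters that kept most of the fusion's DMSO bases, HOXA and HOXD, were those that kept least of GLTSCR1's.

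Counted as regions, 39, 42, 40 and 43 of the 66 GLTSCR1 DMSO regions in the clusters were overlapped again at 12, 24, 48 and 96 h. These are 59.1% (95% Clopper-Pearson interval 46.3% to 71.0%), 63.6% (50.9% to 75.1%), 60.6% (47.8% to 72.4%) and 65.2% (52.4% to 76.5%), beside 55.8%, 47.6%, 43.2% and 48.6% of all GLTSCR1 DMSO regions. At every later time 30 of the 66 were overlapped, 45.5% (33.1% to 58.2%) beside 26.7% of all, and at no later time 13, 19.7% (10.9% to 31.3%) beside 26% of all. HOXB held 15 of those 30, of its 21 regions, HOXC 8 of 20, HOXD 5 of 16 and HOXA 2 of 9. These intervals cover counting error only, and regions of 1 cluster are not independent.

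Of the 114 fusion DMSO regions in the clusters, 88.6% (81.3% to 93.8%), 86.8% (79.2% to 92.4%) and 87.7% (80.3% to 93.1%) were overlapped at 12, 24 and 48 h, beside 72.3%, 64.7% and 68.8% of all fusion DMSO regions. In HOXA 17 of 21 and in HOXD 22 of 28 were overlapped at every later time, as were 24 of 32 in HOXB and 22 of 33 in HOXC. Together these are 85 of 114, or 74.6% (65.6% to 82.3%), beside 50.8% of all. No HOXA or HOXD region of the fusion DMSO list was missing from all 3 later lists, and 2 each of HOXB and HOXC were, which makes 3.51% (0.964% to 8.74%) beside 14.3% of all.

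The lists of both antibodies lay over each other in the clusters. Of the GLTSCR1 regions there, 89.4% (79.4% to 95.6%), 90.7% (82.5% to 95.9%), 81.4% (72.3% to 88.6%) and 92.0% (84.8% to 96.5%) overlapped a fusion region of the same time in DMSO and at 12, 24 and 48 h, beside 59.3%, 55.2%, 54.1% and 66.7% of all GLTSCR1 regions. The reverse share set the clusters apart. GLTSCR1 lay over 95.3% of the bases under a fusion peak in HOXB in DMSO and over 87.2% in HOXC, 53.6% in HOXD and 15.2% in HOXA. At 12, 24 and 48 h these shares were 59.3%, 68.3% and 68.8% in HOXB, 57.7%, 58.6% and 52.0% in HOXC, 10.7%, 15.0% and 15.7% in HOXD and 2.83%, 4.39% and 7.29% in HOXA. Over all chromosomes they were 27.3% in DMSO and 15.0%, 17.1% and 16.1% later.

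**Figure D3:**
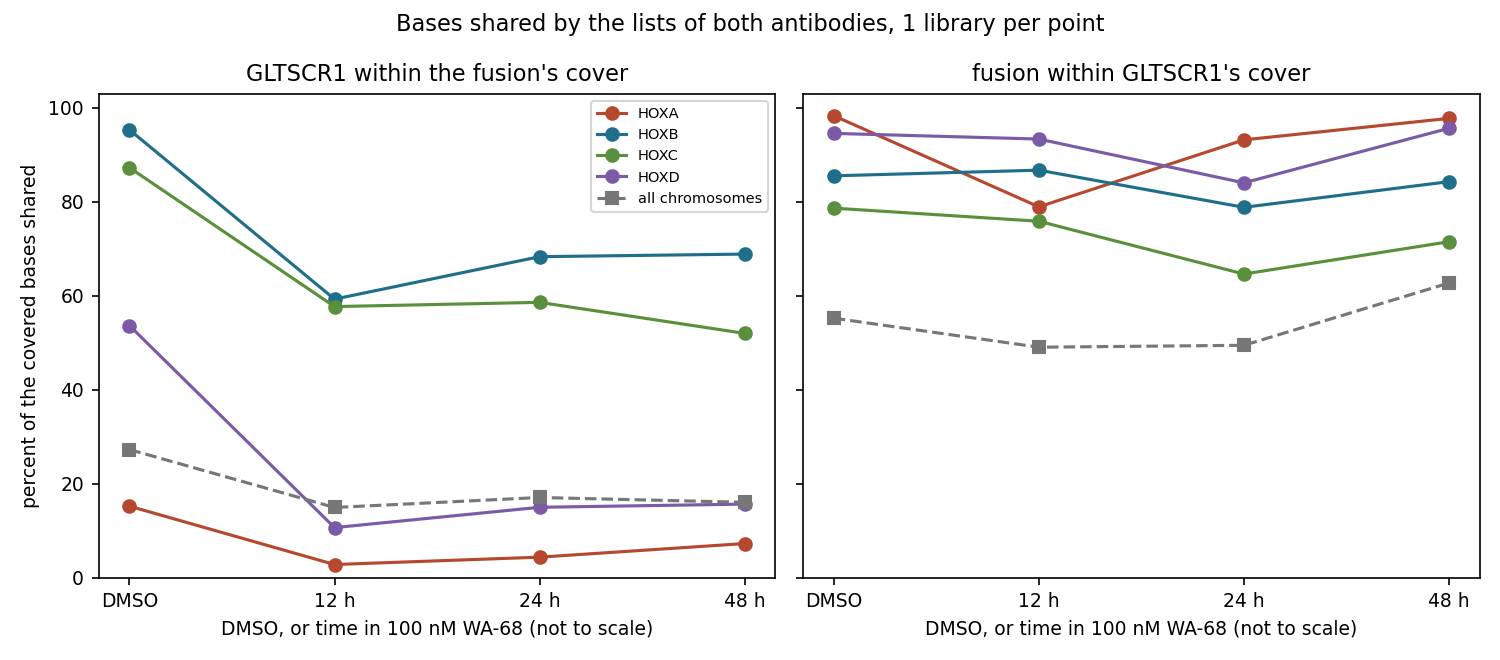
Percent of the bases under a fusion peak that are also under a GLTSCR1 peak (left) and the reverse (right), by HOX cluster and over all chromosomes (dashed), with 1 library of each antibody per time. On the left HOXB and HOXC lie above the dashed line at all times (52.0% or more) and HOXA below it (15.2% or less), and HOXD is above it in DMSO alone.

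Gene by gene, the cover of each span showed the same contrast. In DMSO 15 of the 38 gene windows were covered by GLTSCR1 over at least 50% of their length, of which 8 were in HOXB, 5 in HOXC, 2 in HOXD and 0 in HOXA, while 0.794% of all protein-coding gene windows were. The fusion covered 23 windows to that extent, 6 in HOXA, 7 in HOXB, 4 in HOXC and 6 in HOXD, beside 1.49% of all. At 12, 24, 48 and 96 h GLTSCR1 covered 8, 8, 7 and 7 windows that far (0.424%, 0.379%, 0.379% and 0.394% of all), and at 12, 24 and 48 h the fusion covered 24, 21 and 22 (1.38%, 1.45% and 1.4% of all).

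**Figure D4:**
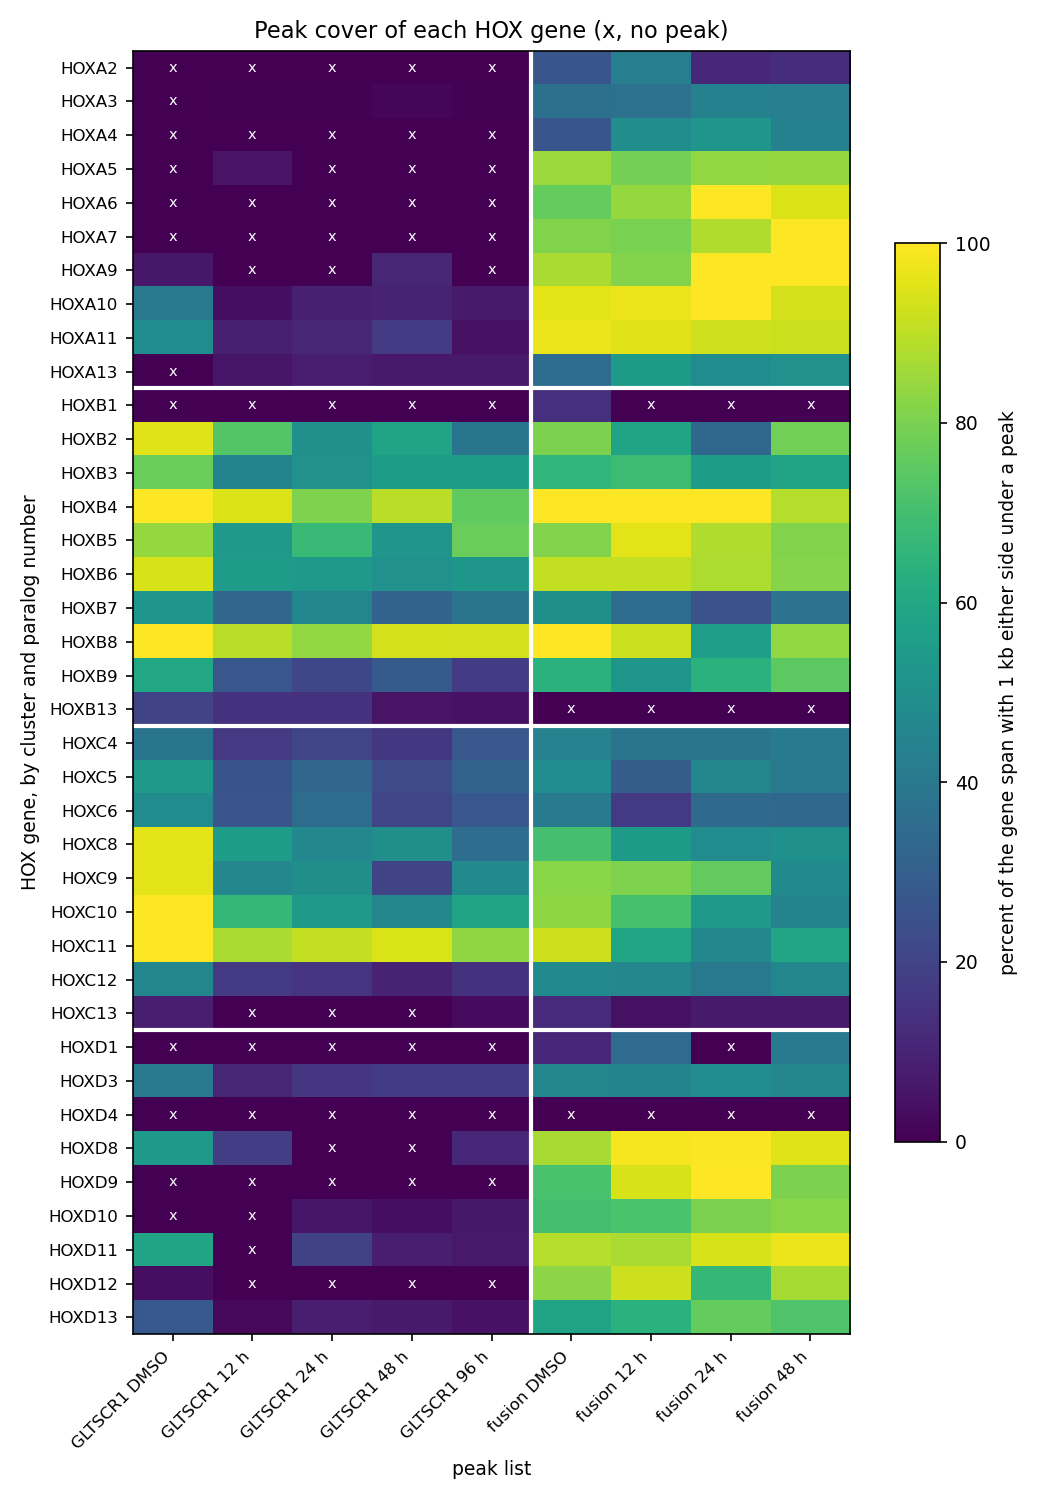
Percent of each HOX gene's span with 1 kb either side that lay under a peak, for the 38 genes (rows, by cluster) and 9 lists (columns), with x where a gene had no peak. The HOXA rows are dark under GLTSCR1 and bright under the fusion, HOXB2 to HOXB9 and HOXC4 to HOXC12 are covered by both, and HOXD4 has no peak in any list.

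In HOXA the GLTSCR1 DMSO peaks lay at the posterior genes. HOXA11, a posterior gene of limb and reproductive tract patterning, had folds of 6.74, 4.54, 4.66, 5.41 and 4.50 in the 5 GLTSCR1 lists, taken in order of time from DMSO, and of 7.55, 7.57, 13.7 and 7.74 in the 4 fusion lists. HOXA10, its neighbour, had 6.25, 3.52, 4.66, 7.02 and 4.73 for GLTSCR1 and 12.2, 13.9, 13.7 and 17.6 for the fusion. These were the only HOXA genes called in all 9 lists. Their fusion fold of 13.7 at 24 h is that of 1 region (chr7:27153584-27181471) with its summit in the span of HOXA7. At both genes the fusion summits of DMSO and 48 h also lay outside the gene's window. HOXA9, a posterior gene known as a leukaemia oncogene, had the same fusion folds as HOXA10 because 1 fusion region held both in each list, and a GLTSCR1 peak in DMSO (fold 4.55) and at 48 h (11.6) but at no other time. These folds are of different sites: that of DMSO (chr7:27165754-27166074) had a region on it at 48 h too, with a fold of 4.26, and that of 48 h (chr7:27160695-27161579) is the site between HOXA7 and HOXA9 described next, which reached into the HOXA9 window at that time.

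That shared fusion region was 14.1 kb wide in DMSO (chr7:27164023-27178089), 13.4 kb at 12 h, 27.9 kb at 24 h and 32.3 kb at 48 h (chr7:27145215-27177480), when it reached from HOXA6 and HOXA7 across HOXA9 to HOXA10. It was the widest fusion region of any HOX cluster at 48 h, and 13.2 kb of it (chr7:27164023-27177253) lay under a fusion peak in all 4 lists. GLTSCR1 peaks common to all 5 lists took 324 bp in all of HOXA, at 1 place between HOXA7 and HOXA9 (chr7:27160936-27161259), where the folds were 5.25, 6.46, 6.31, 11.6 and 9.64. The fusion covered that place too in all 4 lists.

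HOXA13, the last gene of the cluster and a regulator of digit and urogenital development, had no GLTSCR1 peak in DMSO and folds of 3.58, 19.1, 8.33 and 12.7 at 12, 24, 48 and 96 h. These came from narrow regions inside the gene's span that lay on each other, at chr7:27196135-27196578 for 12 h and at chr7:27196037-27196653 for 24 h. The 24 h fold stood at the 99.6th percentile of its list and the 12 h fold at the 12.5th. Fusion folds at HOXA13 were 5.78, 5.84, 9.29 and 6.06, from regions on either side of its span with summits outside its window. The 24 h region (chr7:27181918-27193965) has its summit at 27182414, in the span of HOXA11. HOXA3, an anterior gene of pharyngeal arch patterning, likewise had no GLTSCR1 peak in DMSO and folds of 5.30, 5.18, 5.32 and 5.49 later, but its annotated span of 45.6 kb runs over HOXA4, HOXA5 and HOXA6. Its fusion folds were 10.1, 7.89, 10.8 and 17.6, the last from the region of 32.3 kb with its summit between HOXA9 and HOXA10. HOXA5 had a GLTSCR1 peak at 12 h alone, with a fold of 5.30, inside the span of HOXA3 as well. HOXA2, HOXA4, HOXA6 and HOXA7 had no GLTSCR1 peak in any list, and fusion peaks in all 4. The share of all genes without a GLTSCR1 peak in DMSO that had one at any later time was 15.5%, and in the 7 such HOXA genes 3 did.

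In HOXB both proteins ran together from HOXB2 to HOXB9. HOXB6 and HOXB7, central genes, shared the strongest GLTSCR1 DMSO region of the cluster (6.64 kb, chr17:48600278-48606916). HOXB6 had GLTSCR1 folds of 14.5, 11.3, 10.2, 9.13 and 16.5 and fusion folds of 8.42, 10.6, 7.70 and 7.48. HOXB7 had 14.5, 11.3, 10.2, 9.40 and 7.24 for GLTSCR1 and 10.3, 5.11, 5.05 and 6.45 for the fusion. Both genes were called in all 9 lists. These folds do not follow 1 site. The 16.5 of HOXB6 at 96 h is that of a HOXB5 region (chr17:48592835-48595026) with its summit outside the HOXB6 window. At HOXB7 the GLTSCR1 folds of 48 and 96 h and the fusion fold of DMSO came from regions shared with HOXB8, with summits outside the HOXB7 window.

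In DMSO and at 12 h the strongest fusion region of HOXB lay at HOXB3 and HOXB4, which share chr17:48573595-48579760 in DMSO (6.17 kb). At 24 and 48 h it lay at HOXB8, with folds of 9.37 and 10.9. HOXB4, known for expanding blood stem cells, lies inside the annotated span of HOXB3. Its fusion folds were 11.2, 11.3, 8.27 and 8.02 and its GLTSCR1 folds 12.1, 11.0, 8.96, 7.98 and 7.56. HOXB3 had the same fusion folds as HOXB4 in each list, and GLTSCR1 folds of 12.1, 11.0, 8.96, 11.1 and 13.1. GLTSCR1 covered 100% of the HOXB4 window in DMSO and 94.6%, 80.5%, 89.5% and 75.5% later, and the fusion 88.7% or more in all 4 lists. The lowest of these 9 values was 75.5%, and no other HOX gene had a lowest value above 56.0%.

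Across the cluster, 44 stretches with 26.7 kb in all lay under a GLTSCR1 peak in all 5 lists, the longest of 2598 bp in the span of HOXB6 and HOXB-AS3 (chr17:48604029-48606626). The strongest GLTSCR1 region of the cluster at 48 h had a fold of 23.5 and lay between HOXB8 and HOXB9 (chr17:48616847-48620474). The ends of the cluster differed from its middle. HOXB1, the most anterior, had no GLTSCR1 peak and a fusion fold of 3.70 in DMSO alone. HOXB13, a prostate and colon gene at the far end, had GLTSCR1 folds of 8.20, 4.71, 7.11, 7.55 and 5.46 from regions of 0.284 to 0.923 kb and no fusion peak in any list. The DMSO fold is of a site at 1 end of the gene (chr17:48728705-48729627). The later folds are of a site at the other end (chr17:48724487-48724899 at 24 h), where the DMSO fold was 4.43. HOXB13 was the 1 HOX gene with GLTSCR1 at every time and never the fusion.

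HOXC held the strongest GLTSCR1 region of the 4 clusters in DMSO and at 12 h, at HOXC4, while at 24, 48 and 96 h the strongest lay in HOXA (19.1), HOXB (23.5) and HOXD (25.4). HOXC4, a central gene at the cluster's end, had folds of 22.6, 22.5, 12.0, 12.0 and 16.9 in DMSO and at 12, 24, 48 and 96 h, each between the 97.1th and the 99.7th percentile of its list. These peaks lay on 1 site late in its annotated span (chr12:54051435-54055214 in DMSO, summit at 54052762), of which chr12:54052328-54053011 was under a GLTSCR1 peak in all 5 lists. The fusion covered the same place, with a region of 3.43 kb in DMSO (chr12:54051695-54055124, summit at 54052507). Fusion folds of HOXC4 were 11.7, 8.99, 12.96 and 13.7, but after DMSO they came from another region near the end of HOXC5 (chr12:54032581-54035036 at 48 h).

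HOXC4, HOXC5 and HOXC6 share an annotated start, so a peak there counts for all 3. HOXC5 had GLTSCR1 folds of 10.0, 8.08, 8.62, 8.0 and 10.1 and fusion folds of 8.50, 8.99, 12.96 and 13.7. HOXC10 and HOXC11, posterior genes that lay whole within a broad GLTSCR1 block in DMSO, had folds of 16.8, 9.66, 12.1, 7.53 and 13.2 and of 16.8, 17.6, 12.1, 12.9 and 8.55. That block was 1 region of 28.1 kb (chr12:53963208-53991349) and the widest GLTSCR1 region at later times was 10.1, 13.4, 7.83 and 6.60 kb. Fusion folds were 7.98, 6.98, 5.90 and 4.93 at HOXC10 and 7.29, 5.78, 8.68 and 5.93 at HOXC11.

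The stretches under GLTSCR1 in all 5 lists within the block included 3.65 kb before and into HOXC10 (chr12:53981683-53985330), 3.54 kb over HOXC11 (chr12:53973577-53977118) and 3.43 kb between HOXC12 and HOXC11 (chr12:53966530-53969960). The last of these lies in HOTAIR, a long non-coding RNA transcribed from HOXC and known for its proposed action on HOXD. Between HOXC11 and HOXC10, 795 bp (chr12:53980524-53981318) lay under GLTSCR1 in all 5 lists and under no fusion region in any of 4. HOXC13, the most posterior gene and one of hair and nail, stood apart from its neighbours: GLTSCR1 folds were 5.04 in DMSO and 3.50 at 96 h with no peak between, and fusion folds were 4.54, 3.94, 3.91 and 4.21. These folds stood at or below the 51.6th percentile of their lists.

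In HOXD, cover was split between a posterior block, a stretch around HOXD8 and a block over HOXD3. HOXD3, an anterior gene, had GLTSCR1 folds of 16.1, 6.47, 5.51, 6.46 and 5.62 and fusion folds of 14.0, 10.0, 8.77 and 7.56. In DMSO both came from 1 region each, 9.17 kb for GLTSCR1 (chr2:176156678-176165846) and 9.43 kb for the fusion (chr2:176156431-176165861). HOXD13, the most posterior gene and one of digit patterning, had GLTSCR1 folds of 7.08, 7.06, 9.73, 6.78 and 15.2 and fusion folds of 16.1, 21.3, 10.7 and 7.76. The GLTSCR1 folds came from sites on both sides of the gene, with no summit in its span (176087487 to 176095944). The summits of DMSO, 12 and 96 h lay below the span and those of 24 and 48 h above it. The fusion folds of DMSO and 12 h belong to regions of 17.9 and 18.8 kb that reach out of the cluster across EVX2, a homeobox gene beside it. The DMSO summit (position 176073709) lies beyond both HOXD13 and EVX2.

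The other posterior HOXD genes had the fusion in each list and GLTSCR1 in some. At HOXD11 GLTSCR1 was called in DMSO with a fold of 6.82 and with 4.87, 5.23 and 4.34 at the last 3 times, but not at 12 h, and its fusion folds were 11.7, 9.86, 9.94 and 11.7. HOXD12 had a GLTSCR1 fold of 7.03 in DMSO alone, from a region that overlaps 3.64% of its window, and fusion folds of 6.70, 9.86, 10.4 and 7.66. HOXD10 had no GLTSCR1 peak in DMSO or at 12 h and folds of 4.73, 4.67 and 5.13 at 24, 48 and 96 h, with fusion folds of 8.69, 7.34, 8.19 and 11.7. HOXD9 had no GLTSCR1 peak and fusion folds of 8.69, 7.33, 9.77 and 8.78.

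HOXD8, a central gene, had GLTSCR1 folds of 4.95, 5.19 and 4.63 in 3 lists (DMSO, 12 and 96 h) with no peak at 24 and 48 h, while the fusion covered 86.8% or more of its window in all 4 lists with folds of 7.31, 9.25, 7.60 and 6.12. Between HOXD9 and HOXD8, however, GLTSCR1 had a narrow peak in all 5 lists (743 bp shared, chr2:176126932-176127674), outside both windows, with folds of 6.88, 10.4, 12.7, 9.56 and 25.4. It was the strongest GLTSCR1 region of HOXD in all 4 lists after WA-68. HOXD1, the most anterior, had no GLTSCR1 peak and fusion folds of 4.05, 4.86 and 6.14 in DMSO and at 12 and 48 h, with none at 24 h. HOXD4 had no peak of either protein in any list, and no GLTSCR1 list covered any of the 15.5 kb from chr2:176141182 to 176156677 in which it lies.

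MicroRNA genes also lie among the HOX genes, and their mature sequences are shown because 1 lies under the fusion alone and another under GLTSCR1 in all 5 lists. miR-196, which is known to target HOX transcripts, is encoded between HOXA9 and HOXA10 (miR-196b), between HOXC10 and HOXC9 (miR-196a) and beyond HOXB9 (miR-196a again). miR-10a lies in the span of HOXB3. Sequences are from RefSeq (GRCh38.p14), written 5′ to 3′ with the seed, bases 2 to 8, in capitals.
miR-196b-5p (chr7:27169528-27169549, minus strand): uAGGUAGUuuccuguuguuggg
miR-196a-5p (chr12:53991762-53991783, plus strand): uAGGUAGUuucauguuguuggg
miR-10a-5p (chr17:48579904-48579926, minus strand): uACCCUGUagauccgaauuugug

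Both miR-196 products share the seed AGGUAGU. The miR-196b hairpin lay under a fusion region in all 4 lists, with folds of 12.2, 13.9, 13.7 and 17.6, and under GLTSCR1 in none. The miR-196a hairpin of HOXC lay under GLTSCR1 at 24 h alone (fold 4.45) and under the fusion at 12 and 24 h (3.65 and 4.17), and that of HOXB under no peak of either. The miR-10a hairpin lay under GLTSCR1 in all 5 lists, with folds of 12.1, 11.0, 8.53, 7.29 and 6.10, and under the fusion at 12 and 24 h (11.3 and 8.27). Of 16 named long non-coding RNA genes within the clusters, GLTSCR1 was called at 12, 13, 10, 11 and 11 and the fusion at 13, 14, 14 and 14. Over all 18303 long non-coding RNA genes the shares were 15.8%, 13.8%, 11.7%, 10.2% and 11.6% for GLTSCR1 and 13.8%, 13.7%, 12.6% and 13.7% for the fusion. Most overlap a HOX gene or its neighbourhood, so their peaks are largely those already described.

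HOX proteins bind DNA with TALE-class homeodomain partners; PBX, MEIS and PKNOX proteins are the best known. Of 11 TALE genes, GLTSCR1 was called at 9, 9, 8, 8 and 8 and the fusion at 10, 9, 8 and 8, beside 37.3%, 33.4%, 23.7%, 18.2% and 23.4% of all protein-coding genes for GLTSCR1 and 24.2%, 23.9%, 21.6% and 23.5% for the fusion. These shares are also the background of the homeobox genes and regulators that follow. TGIF1, a repressor of the class, had the highest GLTSCR1 DMSO fold, 22.2, followed by PKNOX2 with 15.1 and MEIS1, a HOXA9 partner, with 13.8, and all 3 were called in all 5 GLTSCR1 lists. PBX3 had the highest fusion DMSO fold, 18.4, with 15.7, 13.3 and 17.8 later. Several of these genes are long, which gives a peak more room to fall in them.

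Of 11 ParaHox and other HOX-linked homeobox genes, GLTSCR1 was called at 5, 4, 4, 5 and 5 and the fusion at 9, 7, 9 and 9, where the GLTSCR1 counts of DMSO and 12 h are near the shares of all genes (37.3% and 33.4%). EVX2, beside HOXD13, had the highest fusion DMSO fold, 16.1, from the region it shares with HOXD13, and MNX1, a motor neuron and pancreas gene, had 14.3. EVX1, beside HOXA13, was called in all 9 lists. Of 9 regulators of HOX transcription, among them the Polycomb methyltransferase EZH2 and its opponent KMT2A, GLTSCR1 was called at 7, 6, 2, 2 and 5 and the fusion at 4, 3, 2 and 4, of which those of GLTSCR1 at 24 and 48 h (23.7% and 18.2% of all genes) and of the fusion at 24 h (21.6%) are near the background. EZH2 had the highest GLTSCR1 DMSO fold, 16.0, and was called in all 5 GLTSCR1 lists.

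The cover ended near the cluster edges on most sides. In the 100 kb below HOXC, GLTSCR1 covered 0% to 0.274% and the fusion 0% to 0.713%, and beyond HOXD1 the fusion covered 0% in all 4 lists. It went on in 3 places: the fusion covered 28.8% to 31.5% of the 100 kb before HOXB1, 20.1% to 26.8% before HOXD13 and 18.6% to 21.7% after HOXA13. In the same places GLTSCR1 covered 4.21% to 7.21%, 4.24% to 8.40% and 2.65% to 7.52%. After HOXA13 its 3.33% at 12 h and 2.65% at 96 h were above its cover of HOXA itself (2.11% and 2.34%). In the other lists it was below. Of the 16 protein-coding genes nearest to the cluster ends, the fusion was called at 8, 9, 10 and 6 (24.2%, 23.9%, 21.6% and 23.5% of all genes) and GLTSCR1 at 12, 10, 9, 8 and 10 (37.3%, 33.4%, 23.7%, 18.2% and 23.4%). SKAP1, the gene before HOXB1 and long, had the highest GLTSCR1 DMSO fold among these, 13.5.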

How the data were processed

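The authors deposited a peak list for each library. Per the submitters' processing notes the build is GRCh38 and the tools used include MACS2 and BWA, with SAMtools, Picard, deepTools, Trim Galore, cutadapt, FastQC and bcl2fastq. Versions, settings and roles: not given in the sources used here. Names inside the deposited lists show 1 calling run per library. Each entry carries the authors' fold enrichment, a linear ratio, and their -log10 p and -log10 q values, and a deposited score that was not used. Entries with identical coordinates were joined into 1 region with the value of its strongest summit, on chromosomes 1 to 22, X and Y. Overlap and cover were computed in Python 3.11.15, with exact intervals from SciPy 1.17.1, and tested on simulated regions. Every HOX gene was counted. Values in every list are given for the 2 genes per cluster with the highest DMSO fold of each antibody, with ties, and for genes called in only some lists of an antibody. At most 3 partner genes per list are named, by DMSO fold, and others named were chosen after their values were seen. Alternatives were other flanks, summits, starts, q thresholds, list lengths, merging and overlap rules. The genes and lists were chosen with earlier results of these data known.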

Additional observations from a re-analysis of the deposited data

How the results depend on the processing

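With 1 library per group, no replicate could be left out. No paired analysis was possible because each group held 1 library. The 20 HOX genes with a start sequence leave out HOXB2 to HOXB13 and most of HOXC. Counting only peaks over an annotated start in these 20 gave 9, 3, 3, 5 and 3 genes for GLTSCR1 in DMSO and at 12, 24, 48 and 96 h and 17, 18, 16 and 17 for the fusion in DMSO and at 12, 24 and 48 h, with 2 and 16 at every time. The 2 are HOXC4 and HOXC5, which share 1 start. No other count of HOX genes moved by over 1.5 times under the flanks, summit rule, q threshold or list lengths tried. Fusion DMSO regions still called were 79.8% at 12 h and 78.1% at 48 h when 50% or more of the shorter region had to be shared, and 76.3%, 77.2% and 77.2% at 12, 24 and 48 h with summits within 250 bp. GLTSCR1 regions that met a fusion region were 75.8%, 69.8%, 70.1% and 79.0% by that summit rule. With lists of equal covered length, GLTSCR1 covered 2.16 kb of HOXA and 16.2 kb of HOXD in DMSO. Depth is unknown and no interval covers differences between libraries.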
